A study of Mus musculus with 6 samples.

Results

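The genes described here are 44 genes of central carbon metabolism, taken by name from the 23366 genes of the count table. They cover glucose uptake, glycolysis, lactate production and export, pyruvate dehydrogenase, the tricarboxylic acid (TCA) cycle and the pentose phosphate pathway. The rule that lists them goes by function and uses no measured value, but earlier results of these data were known when it was made. All 44 are in the table, and 40 had enough reads to be tested. RNA sequencing was done on mouse CD4+ effector T cells (Teff) that were recovered from mesenteric lymph nodes when 6 weeks had passed since T cells were given to Rag-deficient hosts. Such hosts lack lymphocytes with antigen receptors, so their T cells descend from the transferred cells. The cells were sorted by rhodamine 123 (Rh123), a dye that the transporter Mdr1 pumps out. The sort went by dye content, and other influences on that content were not tested. The Mdr1+ group is the dye-low fraction and the Mdr1- group the dye-high fraction, with 3 libraries each, and both have the FVB/N strain background. The groups are therefore sorted fractions of transferred cells and not cells of engineered genotypes, although the labels carry the fraction in a genotype field.

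Glycolysis splits glucose to pyruvate in the cytosol and yields ATP, and lactate dehydrogenase can turn that pyruvate into lactate. The pentose phosphate pathway branches off early in glycolysis and supplies NADPH and ribose for nucleotides. Pyruvate dehydrogenase feeds acetyl-CoA into the TCA cycle in mitochondria, which supplies electrons to the respiratory chain and carbon for synthesis. Activated effector T cells are known for high glucose uptake and lactate production, and dividing T cells use all of these branches.

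The libraries held 2220691 to 20771456 counts in genes. The Mdr1+ library of replicate 3 was the shallowest and stood apart from the other 5 on the leading principal component, with 59.2% of the variance. The counts of both replicate 3 libraries were assigned to gene names in another sort order than the deposited one, and in the deposited order 0 genes of the whole table passed the test. Levels are given as CPM, the count of a gene scaled to the size of its library. The 12 T cell markers in the table summed to 7323 to 8202 CPM in Mdr1+ libraries and to 7074 to 8246 CPM in Mdr1- libraries, and 0 of the 12 passed the test with or without the block described below. Both CD8 markers had 0 to 12 counts each in Mdr1+ libraries and 5 to 18 counts each in Mdr1- libraries, and 5 of 7 erythroid markers had 0 counts in every library. Myeloid markers stood apart in 1 library: 11 genes summed to 16.8 CPM on average in Mdr1+ libraries and to 15.0, 10.9 and 114 CPM in Mdr1- replicates 1, 2 and 3. The 8 B cell markers summed to 11.5 to 22.8 CPM in Mdr1+ and 7.26 to 11.3 CPM in Mdr1- libraries. Dendritic cell markers summed to 191 to 201 CPM in Mdr1+ and 187 to 225 CPM in Mdr1- libraries over 12 genes, with Clec9a and Cd209a at 0 throughout. Ccr7 made the largest part of that sum, at 138 to 176 CPM in Mdr1+ and 93.6 to 161 CPM in Mdr1- libraries. Stromal and endothelial markers summed to 118 to 192 CPM in Mdr1+ and 126 to 137 CPM in Mdr1- libraries over 10 genes, with Kdr and Pdgfra at 0 throughout. Most of it was Pecam1, at 115 to 190 CPM in Mdr1+ and 115 to 128 CPM in Mdr1- libraries. These 2 sums therefore say little about the other genes of their lists. Epithelial markers summed to 14.5 to 22.2 CPM in Mdr1+ and 7.59 to 9.68 CPM in Mdr1- libraries over 6 genes, with Krt8 and Krt19 at 0 throughout. With the block, 1 of 2 tested myeloid, 2 of 6 dendritic cell and 1 of 3 stromal markers fell, and 1 of 3 B cell and 1 of 3 epithelial markers rose. The part of these cell types in the results was not tested.

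The planned fit had no block and is given after the blocked one. The alternative has the replicate number as a block, which pairs libraries of the same number. That pairing comes from the data and not from the labels. In the fit with the block, 10 of the 40 tested genes fell in Mdr1+ cells relative to Mdr1- cells and 0 rose. Over all 10897 tested genes that fit called 6.57% lower and 5.81% higher. The genes that fell were Cs, Idh2, Idh3a, Mdh1 and Fh1 of the TCA cycle and its cytosolic arm, Tkt and Taldo1 of the pentose phosphate pathway, Hk2 and Tpi1 of glycolysis, and Ldha. Without the block edgeR's quasi-likelihood test called 0 of the 40 in either direction, where it called 1.95% of all tested genes lower and 0.275% higher. At an unadjusted p under 0.05 it had 7 lower and 0 higher, against 7.22% and 4.63% of all tested genes, and DESeq2 called 3 lower (Tpi1, Idh2 and Fh1) and 0 higher, against 3.18% and 0.860% of the 11970 genes to which it gave an adjusted p. In bulk RNA, fewer cells that express a gene and less RNA per cell cannot be told apart.

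Libraries of the same replicate number were often high or low together, as the levels of Hk2 and Slc16a1 given below show. Across genes, their deviations from group means correlated at 0.41, 0.57 and 0.21 for replicates 1, 2 and 3. The link was thus weakest in replicate 3, where Idh3a (36.3 CPM in Mdr1+ and 118 CPM in Mdr1-) and Pdk3 (9.90 and 46.2 CPM) lay far apart. Without replicate 2 the blocked fit called 2 of the 40, Idh3a and Tkt, against 3.66% of all tested genes, and the other 8 of the 10 had fold changes below 0 that did not pass. Without replicate 3, 16 fell and 1, Gapdh, rose, against 12.1% and 10.1% of all tested genes, and of the 10 only Hk2 was lost (adjusted p = 0.064). Without replicate 1, all 10 and Pdk3 fell, against 6.26% of all tested genes.

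**Figure D1:**
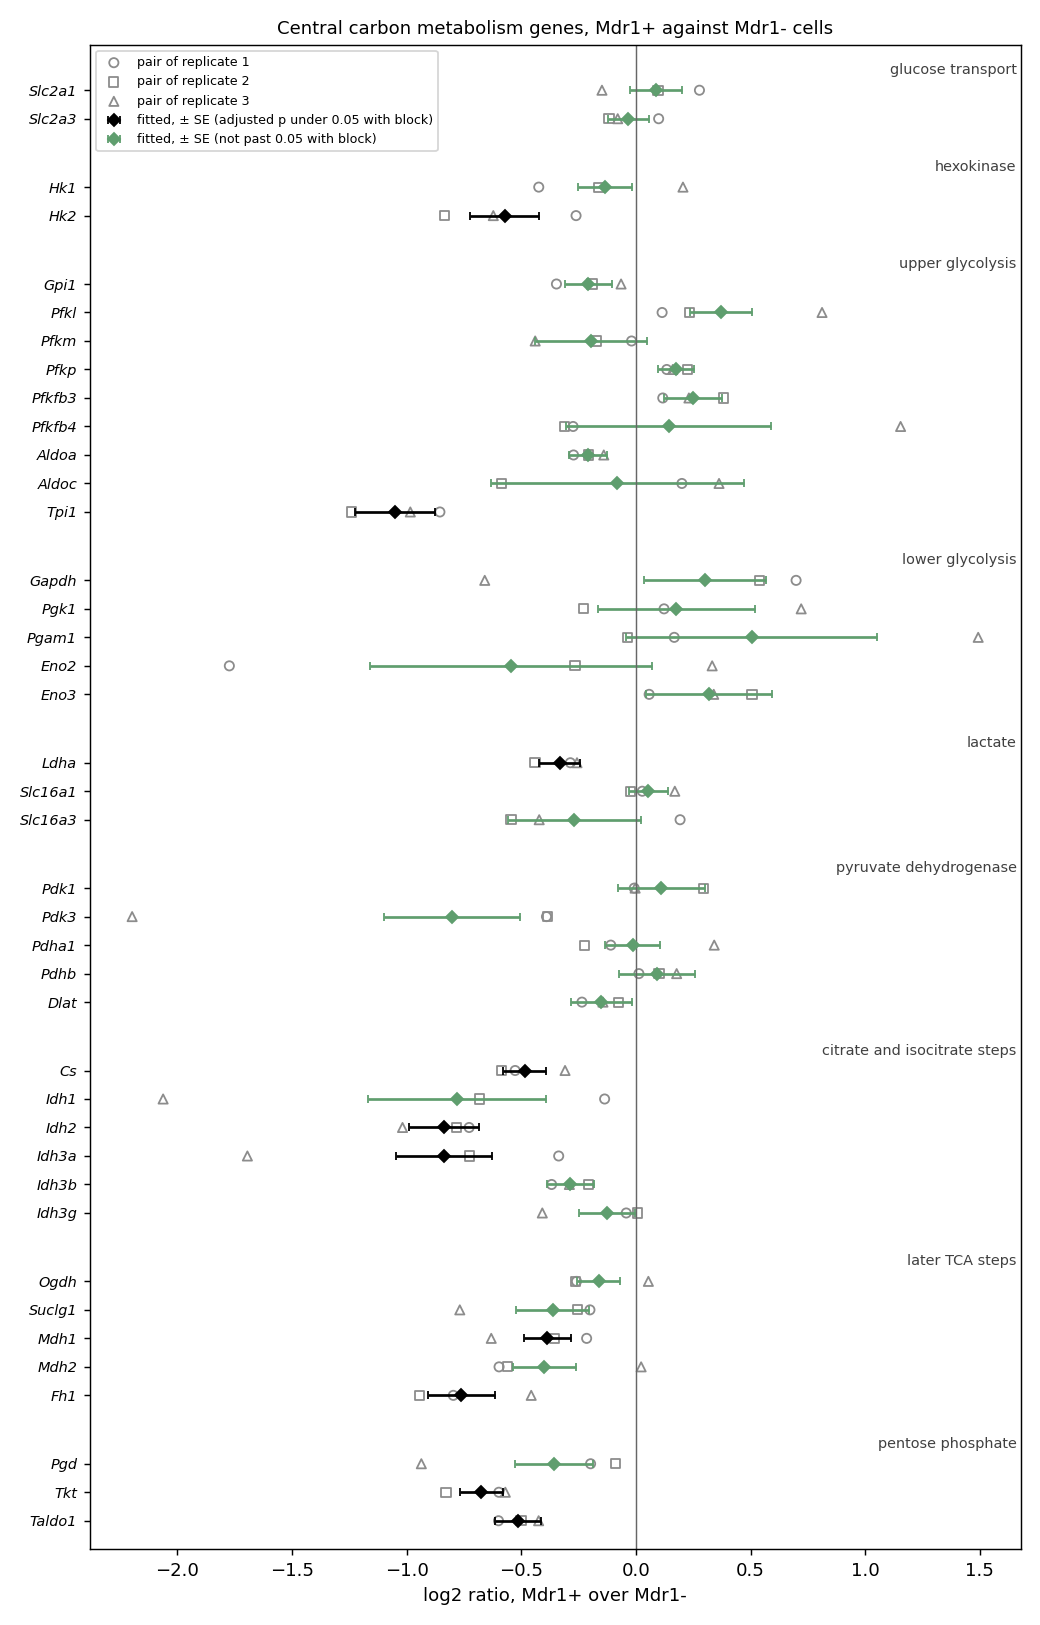
The x axis is the log2 of Mdr1+ divided by Mdr1- for the 40 tested genes on the y axis (grouped by pathway step). Open symbols are the ratios within replicates 1, 2 and 3, diamonds the fold change fitted with the replicate block with its standard error, and black diamonds genes with an adjusted p under 0.05 in that fit. The 10 black diamonds all lie left of 0, from -1.05 for Tpi1 to -0.33 for Ldha, and their 3 pairs lie left of 0 too.

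Per pathway step, the median log2 fold change without the block was -0.59 for the 6 genes from citrate synthase to isocitrate dehydrogenase. It was -0.37 for the 5 genes of the later TCA steps and -0.51 for the 3 pentose phosphate genes. It was -0.32 for the 2 tested hexokinase genes and -0.09 for 9 genes of upper glycolysis. For 5 genes of lower glycolysis it was 0.33, and for 3 genes of lactate production and export -0.31. Of the lower glycolysis genes, Gapdh, Pgk1 and Pgam1 share long stretches with other genes, as given below. Differences between steps were not tested. Both glucose transporters had a median of 0.03, the 5 tested genes around pyruvate dehydrogenase 0.00, and all 10897 tested genes 0.04. All genes of the citrate to isocitrate, later TCA and pentose phosphate steps had a fold change below 0 with and without the block. Without the block, 4991 of all 10897 tested genes were below 0.

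**Figure D2:**
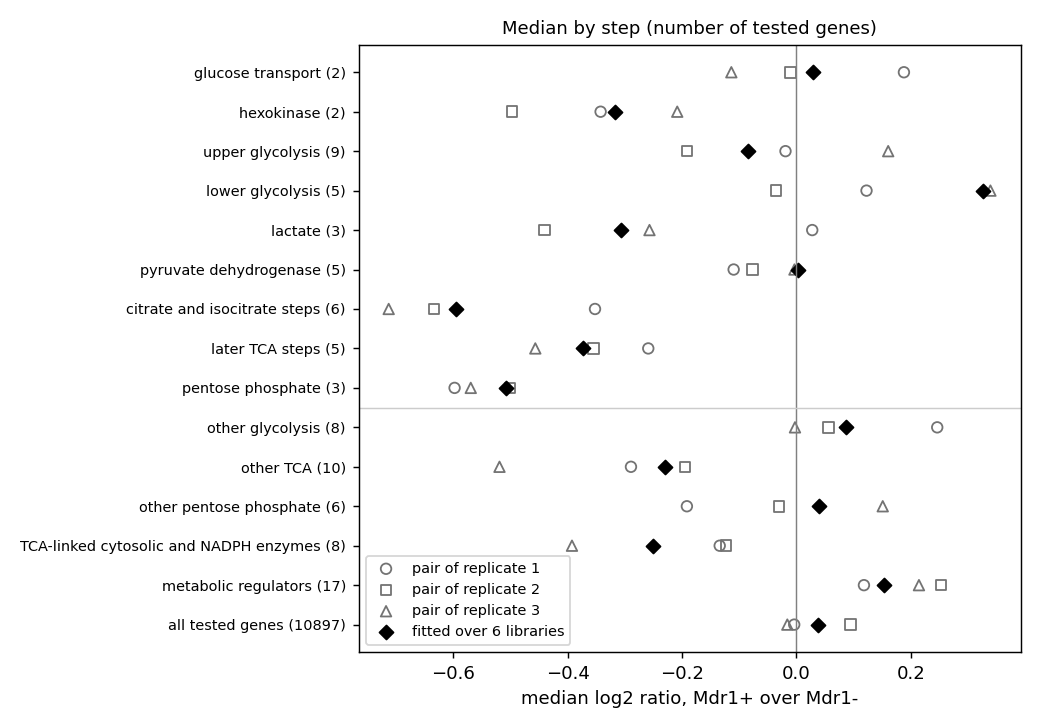
Each mark is a median, on the x axis, of log2 Mdr1+ to Mdr1- ratios within a pathway step or other list on the y axis (number of tested genes in parentheses). Open symbols are medians within replicates 1, 2 and 3 and diamonds medians of the fold changes fitted without the block. The citrate to isocitrate, later TCA and pentose phosphate steps lie below -0.25 in every pair, and all tested genes lie between -0.02 and 0.09.

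Promoter sequence is shown for genes that fell with the block and carry the core of the hypoxia response element, and for Tkt, which fell and does not. The 250 bases before each RefSeq start on the GRCm38.p6 reference (strain C57BL/6J) were searched on both strands for 42 of the 44 genes. Genes with several starts have several windows, and a match in any of them counted for the gene. Capitals mark ACGTG, the core bound by hypoxia-inducible factors, and CACGTG, the E-box of Myc-family factors, which contains that core. Ldha (chr7:46845554-46845803, + strand, the first of its RefSeq starts) has the E-box at 2 places and the core on the other strand at 1 more. Hk2 (chr6:82774455-82774704, - strand) has the core at 2 places on the other strand, shown as CACGT. Mdh1 (chr11:21571935-21572184, - strand) has it at 1 place on the printed strand, and Tkt (chr14:30548881-30549130, + strand) at 0.
Ldha: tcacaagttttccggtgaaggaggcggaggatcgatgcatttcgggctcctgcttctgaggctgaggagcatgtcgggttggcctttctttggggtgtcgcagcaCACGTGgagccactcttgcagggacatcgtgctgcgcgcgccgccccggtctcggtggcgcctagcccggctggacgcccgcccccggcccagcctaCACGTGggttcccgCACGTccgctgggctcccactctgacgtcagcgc
Hk2: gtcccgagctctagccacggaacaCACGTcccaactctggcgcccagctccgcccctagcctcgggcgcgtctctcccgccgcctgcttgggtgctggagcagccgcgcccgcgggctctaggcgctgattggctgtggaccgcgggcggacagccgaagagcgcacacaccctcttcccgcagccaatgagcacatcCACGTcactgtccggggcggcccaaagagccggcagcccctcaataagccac
Mdh1: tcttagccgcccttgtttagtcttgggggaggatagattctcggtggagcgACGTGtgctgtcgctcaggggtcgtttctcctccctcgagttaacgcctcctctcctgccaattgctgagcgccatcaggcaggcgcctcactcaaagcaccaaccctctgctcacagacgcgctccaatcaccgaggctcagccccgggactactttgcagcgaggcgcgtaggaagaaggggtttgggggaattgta
Tkt: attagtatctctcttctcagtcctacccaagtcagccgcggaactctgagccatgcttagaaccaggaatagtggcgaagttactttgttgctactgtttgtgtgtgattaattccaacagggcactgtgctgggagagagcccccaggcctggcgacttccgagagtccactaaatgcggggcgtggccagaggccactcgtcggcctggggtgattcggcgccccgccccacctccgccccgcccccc

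The core ACGTG was in at least 1 window of 17 of the 42 genes (40.5%). This held for 18.5% of 27025 genes with a window and for 26.3% of the 8081 among them that were tested. A gene with more starts has more places for a match, which was not adjusted for. The E-box CACGTG was in 6 (14.3%), against 6.86% and 10.3%. Of the 9 genes that fell with the block and have a window, 3 hold ACGTG (Hk2, Ldha and Mdh1) and 1, Ldha, holds CACGTG. The E2F sequences TTTCCCGC and TTTGGCGC were in 0 of the 42, against 1.51% of all genes and 3.25% of tested genes. The CCAAT box was in 20 (47.6%), against 37.5% of all genes and 41.0% of tested genes, and in 6 of the 9 that fell. A match describes the letters and not a bound site.

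Glucose enters T cells through Slc2a1 (GLUT1) and Slc2a3 (GLUT3), and neither transcript passed the test. Slc2a1 was at 132, 98.9 and 90.5 CPM in Mdr1+ and at 109, 92.5 and 100 CPM in Mdr1- replicates 1, 2 and 3. Slc2a3 was at 198, 158 and 231 CPM in Mdr1+ and at 185, 171 and 244 CPM in Mdr1- cells. The groups overlapped for both genes. With the block the log2 fold changes were 0.09 ± 0.11 and -0.03 ± 0.09 (adjusted p = 0.66 and 0.85). Per kb of exon, Slc2a3 had the higher level, at 49.4 in Mdr1+ and 50.5 CPM per kb in Mdr1- cells, against 32.9 and 30.8 CPM per kb for Slc2a1.

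Hexokinases trap glucose in the cell as its phosphate, and of the forms in the list the inducible Hk2 fell with the block and Hk1 did not pass. Without replicate 3 it was Hk1 that fell with the block (adjusted p = 0.025) and Hk2 that did not pass (0.064). A difference between them was not shown. The exact permutation test of their ratio, given below, does not pair the libraries and cannot go below p = 0.1, so it could not decide this. Hk2 was at 59.5, 23.1 and 45.3 CPM in Mdr1+ and at 71.3, 41.3 and 69.8 CPM in Mdr1- replicates 1, 2 and 3. The groups overlapped, both libraries of replicate 2 were low, and Mdr1+ was the lower one in each pair (blocked log2 fold change -0.57 ± 0.15, adjusted p = 0.040, and 0.64 without the block). Hk1 was at 138, 209 and 219 CPM in Mdr1+ and at 186, 233 and 190 CPM in Mdr1- cells, with a log2 fold change of -0.14 ± 0.12 with the block (adjusted p = 0.51). Per kb of exon Hk1 was the main form, at 38.9 in Mdr1+ and 41.9 CPM per kb in Mdr1- cells, against 7.59 and 10.8 CPM per kb for Hk2. Hk3, a form of myeloid cells, was too low to test, with 3, 26 and 0 counts in Mdr1+ and 5, 7 and 2 counts in Mdr1- replicates 1, 2 and 3.

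In the upper part of glycolysis, from phosphohexose isomerase to triose phosphate isomerase, Tpi1 fell with the block and the other 8 genes did not pass. Tpi1 interconverts the triose phosphates, and it was at 18.1, 19.8 and 16.0 CPM in Mdr1+ and at 32.9, 47.0 and 31.9 CPM in Mdr1- replicates 1, 2 and 3. The groups did not overlap, which held for 11.0% of all tested genes in this direction and for 8.71% in the other. It had the largest fall of the 10 (log2 fold change -1.05 ± 0.17 with the block, adjusted p = 0.0056). Without the block the value was -1.04 ± 0.24 (adjusted p = 0.065), and it passed without the filter on low counts (0.046) and in DESeq2 (0.0065).

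The phosphofructokinase subunits catalyse the committing step, and 0 of their 3 genes passed. Pfkp was the main form per length, at 96.2 in Mdr1+ and 85.3 CPM per kb in Mdr1- cells, followed by Pfkl at 39.1 and 29.6 CPM per kb and Pfkm at 3.76 and 4.36 CPM per kb. Pfkp was at 440, 406 and 394 CPM in Mdr1+ and at 401, 347 and 353 CPM in Mdr1- cells, and Mdr1+ was higher in each pair. Pfkl was at 113, 149 and 175 CPM in Mdr1+ and at 104, 127 and 99.8 CPM in Mdr1- cells, also higher in each pair (blocked log2 fold change 0.37 ± 0.14, adjusted p = 0.11). Pfkfb3, which makes the metabolite that activates phosphofructokinase, was higher in each pair as well (mean 63.2 ± 7.02 CPM over the 3 Mdr1+ libraries and 53.3 ± 5.44 CPM over the 3 Mdr1- libraries, ± SD; adjusted p = 0.23 with the block). These 3 and the enolase gene Eno3 and the pyruvate dehydrogenase gene Pdhb were the 5 of the 40 that were higher in all 3 pairs, against 28.2% of all tested genes, while 19 of the 40 were lower in all 3, against 24.6%.

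Aldoa, the main aldolase gene, had no overlap between groups and a small difference. It was at 223, 234 and 225 CPM in Mdr1+ and at 269, 270 and 248 CPM in Mdr1- cells (blocked log2 fold change -0.21 ± 0.08, adjusted p = 0.14). Gpi1, the isomerase gene, was lower in each pair with overlapping groups (adjusted p = 0.22 with the block). The low forms Pfkm, Pfkfb4 and Aldoc had means of 11.3, 6.28 and 2.38 CPM over the Mdr1+ libraries and of 13.1, 4.89 and 2.29 CPM over the Mdr1- libraries, with adjusted p from 0.66 to 0.94 with the block.

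The lower part of glycolysis could be read only in part, as several of its genes share long stretches with other genes. Gapdh, which encodes glyceraldehyde phosphate dehydrogenase and is one of the most abundant transcripts of most cells, had only 136, 642 and 24 counts in Mdr1+ and 124, 238 and 106 counts in Mdr1- replicates 1, 2 and 3. In the GENCODE M21 transcript set, 82.5% of the 50-base windows of its transcript also occur in other genes, 213 of which are pseudogenes. The same share was 72.2% for Eno1, 68.0% for Pgk1 and 41.5% for Pgam1, and at most 30.3% for every other gene of the 44. Of the 10 genes that fell with the block it was 16.6% for Ldha, 10.9% for Taldo1, 7.51% for Tpi1, lower still for Cs and 0% for the other 6. Eno1, the main enolase gene of T cells, had 1, 9 and 0 counts in Mdr1+ and 1, 4 and 2 counts in Mdr1- libraries and was not tested. The table counts reads without a unique position apart from the genes, so the levels of these genes are uncertain, and the part of the shared sequence in them was not tested.

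Of the lower glycolysis genes, 0 of 5 tested passed with or without the block. Gapdh was at 22.6, 30.0 and 11.3 CPM in Mdr1+ and at 13.8, 20.6 and 18.0 CPM in Mdr1- cells, higher in Mdr1+ in replicates 1 and 2 and lower in replicate 3. Without replicate 3 it rose with the block (log2 fold change 0.57, adjusted p = 0.027), and with all libraries it did not pass (0.30 ± 0.27, adjusted p = 0.51). Pgk1, Pgam1 and Eno2, the kinase, mutase and neuronal enolase genes, had means of 8.44, 3.79 and 2.42 CPM over the Mdr1+ libraries and of 6.85, 2.24 and 2.87 CPM over the Mdr1- libraries. Eno3, the muscle enolase gene, whose windows are found in no other gene, had a mean of 11.2 ± 2.62 CPM over the 3 Mdr1+ libraries and of 8.88 ± 1.10 CPM over the 3 Mdr1- libraries (± SD). For all 4 the 3 libraries of the groups overlapped.

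**Figure D3:**
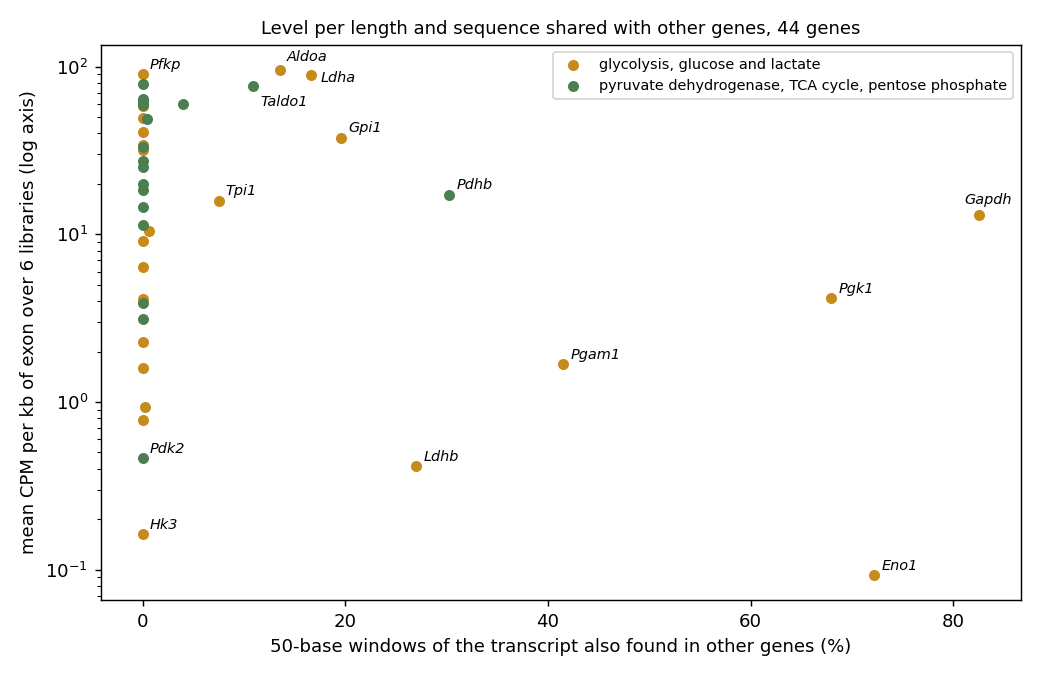
Mean level per length over the 6 libraries (y axis, CPM per kb of exon without TMM scaling, log axis) against the share of 50-base windows of the longest coding transcript that occur in other genes (x axis, percent) for all 44 genes, coloured by pathway. Gapdh, Eno1, Pgk1 and Pgam1 lie to the right at 41.5% to 82.5%, and most TCA and pentose phosphate genes lie at 0%.

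Pyruvate kinase, which makes pyruvate, is encoded by Pkm, a gene of the wider pathway list. It was at 178, 170 and 175 CPM in Mdr1+ and at 217, 258 and 227 CPM in Mdr1- cells, without overlap. It fell with the block (log2 fold change -0.42 ± 0.09, adjusted p = 0.021, and 0.30 without the block). Of the 50-base windows of Pkm, 30.5% also occur in other genes. Ldha, the main subunit of the lactate dehydrogenase of effector T cells, was at 155, 130 and 168 CPM in Mdr1+ and at 189, 176 and 201 CPM in Mdr1- replicates 1, 2 and 3. Its groups did not overlap, and it fell with the block by 0.33 ± 0.09 on the log2 scale (adjusted p = 0.042, and 0.50 without the block). Ldhb, the other subunit, was too low to test, with 1, 16 and 0 counts in Mdr1+ and 6, 12 and 3 counts in Mdr1- libraries.

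The monocarboxylate transporters that carry lactate did not pass. Slc16a1 (MCT1) was at 365, 146 and 295 CPM in Mdr1+ and at 358, 148 and 262 CPM in Mdr1- replicates 1, 2 and 3. Both libraries of replicate 2 were low and those of the same number lay close together (blocked log2 fold change 0.05 ± 0.08, adjusted p = 0.72). Slc16a3 (MCT4), the exporter of glycolytic cells, had a mean of 9.14 ± 1.89 CPM over the 3 Mdr1+ libraries and of 11.1 ± 3.22 CPM over the 3 Mdr1- libraries (± SD; adjusted p = 0.60 with the block).

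Around pyruvate dehydrogenase, which links glycolysis to the TCA cycle, 0 of 5 tested genes passed with or without the block. The subunit genes Pdha1, Pdhb and Dlat had means of 140, 27.1 and 43.3 CPM over the Mdr1+ libraries and of 140, 25.3 and 48.1 CPM over the Mdr1- libraries. Their log2 fold changes with the block were -0.01 ± 0.12, 0.09 ± 0.17 and -0.15 ± 0.13. Pdk1, a kinase that switches the complex off, was at 21.8, 23.8 and 17.4 CPM in Mdr1+ and at 21.9, 19.4 and 17.5 CPM in Mdr1- cells. Pdk3, another such kinase, was at 32.4, 23.4 and 9.90 CPM in Mdr1+ and at 42.5, 30.6 and 46.2 CPM in Mdr1- cells, lower in each pair and farthest apart in replicate 3. It did not pass with the block (log2 fold change -0.80 ± 0.30, adjusted p = 0.12), and it passed when replicate 1 or replicate 3 was left out (-1.19 and -0.42, adjusted p = 0.036 and 0.043). Pdk2 had 11, 39 and 0 counts in Mdr1+ and 8, 13 and 3 counts in Mdr1- libraries and was not tested.

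At the entry of the TCA cycle, 3 of 6 genes fell with the block. Cs, which encodes citrate synthase, was at 140, 155 and 138 CPM in Mdr1+ and at 202, 233 and 171 CPM in Mdr1- replicates 1, 2 and 3. Every Mdr1+ library was below every Mdr1- library, and the log2 fold change with the block was -0.48 ± 0.09 (adjusted p = 0.012, and 0.29 without the block). Idh2, the mitochondrial isocitrate dehydrogenase that makes NADPH, was at 19.9, 28.2 and 25.5 CPM in Mdr1+ and at 33.2, 48.7 and 51.8 CPM in Mdr1- cells. Its groups did not overlap either, and it fell with the block by 0.84 ± 0.15 on the log2 scale (adjusted p = 0.0089, and 0.15 without the block).

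Of the NAD-dependent isocitrate dehydrogenase, the catalytic subunit gene Idh3a fell and the other subunit genes did not pass. Idh3a was at 86.6, 59.6 and 36.3 CPM in Mdr1+ and at 109, 98.7 and 118 CPM in Mdr1- replicates 1, 2 and 3. The groups did not overlap, and the ratio within replicate 3 (-1.69 on the log2 scale) was the farthest from 0, against -0.34 and -0.73 within replicates 1 and 2. The log2 fold change with the block was -0.84 ± 0.21 (adjusted p = 0.033), and -0.57 without replicate 3 (adjusted p = 0.025). Idh3b and Idh3g had means of 90.1 and 76.7 CPM over the Mdr1+ libraries and of 110 and 83.6 CPM over the Mdr1- libraries (adjusted p = 0.10 and 0.56 with the block). Idh1, the cytosolic NADPH-making form, was at 10.1, 4.77 and 2.36 CPM in Mdr1+ and at 11.2, 7.78 and 10.5 CPM in Mdr1- cells and did not pass (adjusted p = 0.23 with the block).

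In the later TCA steps, Fh1 and Mdh1 fell with the block and 3 genes did not pass. Fh1, which encodes fumarate hydratase, was at 34.2, 35.5 and 38.7 CPM in Mdr1+ and at 59.6, 68.4 and 53.1 CPM in Mdr1- replicates 1, 2 and 3. The Mdr1+ libraries lay close together below all Mdr1- libraries (blocked log2 fold change -0.76 ± 0.15, adjusted p = 0.011, and 0.085 without the block). Mdh1, the cytosolic malate dehydrogenase of the malate-aspartate shuttle, was at 170, 157 and 107 CPM in Mdr1+ and at 197, 201 and 166 CPM in Mdr1- cells. The groups overlapped by 1 library, and Mdr1+ was lower in each pair (-0.39 ± 0.10, adjusted p = 0.041, and 0.54 without the block).

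Mdh2, the mitochondrial malate dehydrogenase, was at 62.8, 86.7 and 93.8 CPM in Mdr1+ and at 95.1, 128 and 92.4 CPM in Mdr1- cells. It was lower in Mdr1+ in replicates 1 and 2, with a log2 ratio of 0.02 in replicate 3 (adjusted p = 0.095 with the block, and 0.0039 without replicate 3). Ogdh, the oxoglutarate dehydrogenase gene, had a mean of 249 ± 46.2 CPM over the 3 Mdr1+ libraries and of 275 ± 14.4 CPM over the 3 Mdr1- libraries (± SD; adjusted p = 0.30 with the block). Suclg1, a succinyl-CoA ligase subunit gene, had a mean of 35.9 ± 14.2 CPM over the 3 Mdr1+ libraries and of 45.9 ± 11.6 CPM over the 3 Mdr1- libraries (± SD; adjusted p = 0.17 with the block).

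TCA genes outside the 44 showed the same sign. All 10 tested genes of that list had a log2 fold change below 0 without the block (median -0.23). Of all 10897 tested genes, 4991 did. With the block 2 of the 10 fell, both subunits of succinate dehydrogenase, against 6.57% of all tested genes. Sdhd was at 66.5, 68.3 and 42.0 CPM in Mdr1+ and at 90.4, 112 and 85.7 CPM in Mdr1- cells (adjusted p = 0.011 with the block and 0.22 without it). Sdha had a mean of 148 ± 28.7 CPM over the 3 Mdr1+ libraries and of 196 ± 15.8 CPM over the 3 Mdr1- libraries (± SD; adjusted p = 0.033 with the block and 0.44 without it). The subunit genes Sdhb and Sdhc did not pass (adjusted p = 0.22 and 0.063 with the block).

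In the pentose phosphate pathway, Tkt and Taldo1 of the non-oxidative branch fell with the block, and Rpia and Rpe, the isomerase and epimerase genes of that branch from the wider list, did not pass (blocked log2 fold change 0.17 ± 0.16 and 0.02 ± 0.14, adjusted p = 0.53 and 0.94). Tkt, which encodes transketolase, was at 145, 172 and 137 CPM in Mdr1+ and at 219, 305 and 204 CPM in Mdr1- replicates 1, 2 and 3. The groups did not overlap, and the fall of 0.67 ± 0.09 on the log2 scale had the lowest adjusted p of the 44 genes with the block (0.0023, and 0.17 without the block). Taldo1, the transaldolase gene, was at 80.1, 96.0 and 80.2 CPM in Mdr1+ and at 121, 136 and 108 CPM in Mdr1- cells, again without overlap. It fell with the block by 0.51 ± 0.10 on the log2 scale (adjusted p = 0.012, and 0.24 without the block).

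The oxidative branch, which makes NADPH, did not pass. Pgd, the phosphogluconate dehydrogenase gene, was at 46.7, 62.9 and 34.4 CPM in Mdr1+ and at 53.6, 66.9 and 66.1 CPM in Mdr1- cells, lower in each pair (adjusted p = 0.21 with the block). G6pdx, the gene of the first enzyme of this branch and not among the 44, had a mean of 45.3 ± 3.77 CPM over the 3 Mdr1+ libraries and of 55.6 ± 8.15 CPM over the 3 Mdr1- libraries (± SD; adjusted p = 0.23 with the block). Of 6 tested further pentose phosphate genes 0 passed, and their median log2 fold change without the block was 0.04.

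**Figure D4:**
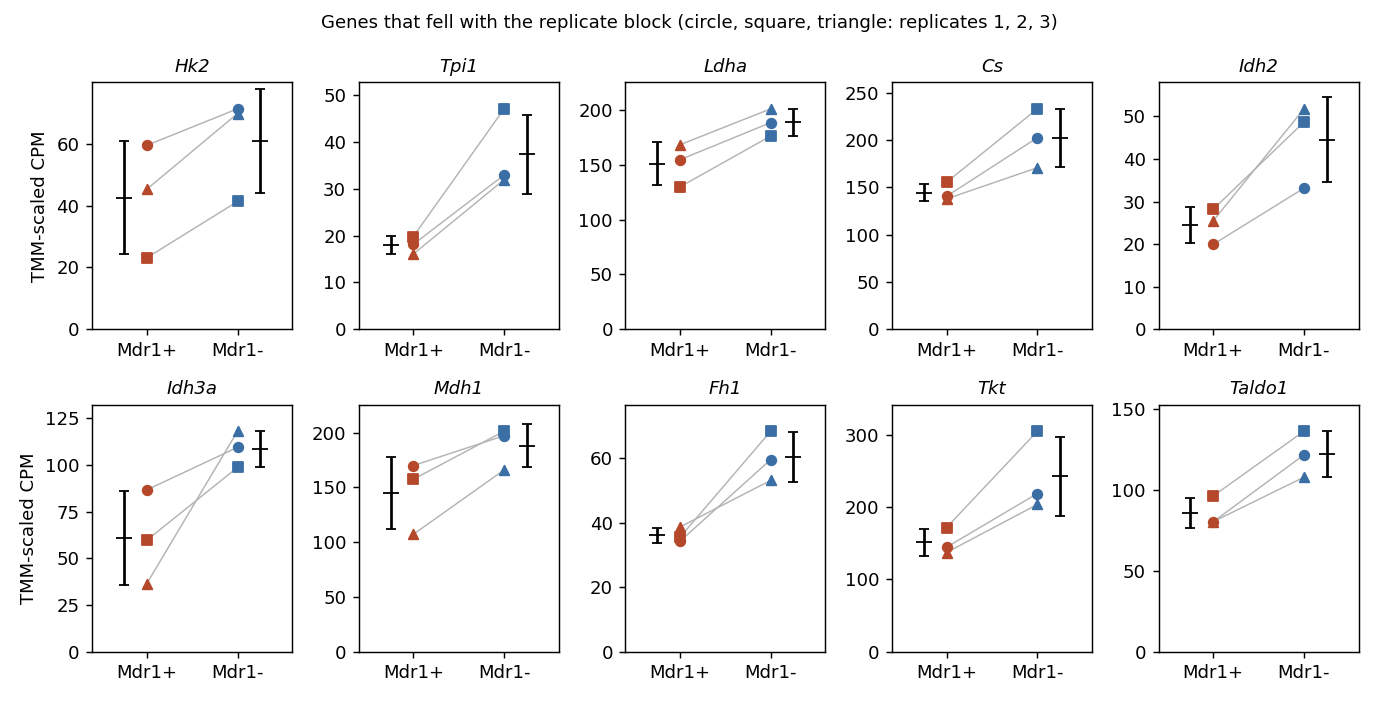
The y axes start at 0 and show TMM-scaled CPM for the 10 genes that fell with the replicate block, in Mdr1+ (left) and Mdr1- (right) libraries. Symbols are replicates 1 (circle), 2 (square) and 3 (triangle), grey lines join libraries of the same number, and the black marks give mean ± SD (n = 3). All lines slope upward to Mdr1-, and the groups overlap for Hk2 and Mdh1 only.

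The 27 listed cell cycle genes summed to 1646, 1321 and 1302 CPM in Mdr1+ and to 4235, 5925 and 5541 CPM in Mdr1- replicates 1, 2 and 3, and 26 of them fell with the block. Their median log2 fold change was -2.16 without the block, against -0.19 for the 40 tested metabolic genes and 0.04 for all tested genes. The part of the cell cycle genes in the metabolic differences was not tested.

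Ratios between genes that encode forms of the same step were compared for 9 pairs, since a ratio within a library does not depend on its scaling. Only Pdk1 over Pdk3 had no overlap between groups, with log2 ratios of -0.57, 0.03 and 0.80 in Mdr1+ and -0.95, -0.65 and -1.39 in Mdr1- replicates 1, 2 and 3. The difference was 1.09 (exact two-sided permutation test, p = 0.1, the smallest that 3 against 3 allows, and 0.90 adjusted over the 9 pairs). For the other 8 pairs the exact p was 0.6 to 1. Hk2 over Hk1 had a mean log2 ratio of -2.22 ± 0.98 in Mdr1+ and -1.77 ± 0.62 in Mdr1- cells (SD, n = 3 each; exact permutation p = 0.7).

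**Figure D5:**
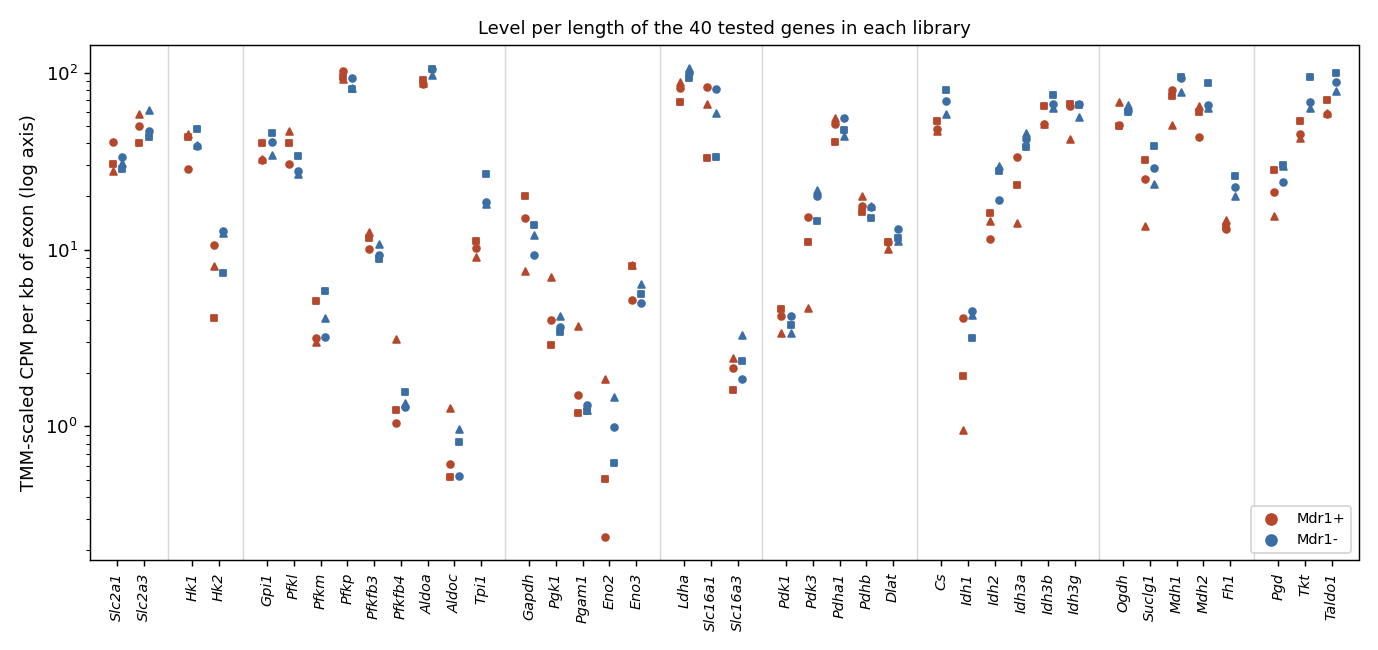
TMM-scaled CPM per kb of exon (y axis, log axis) of the 40 tested genes (x axis, by pathway step) in each Mdr1+ (left of each pair) and Mdr1- (right) library, with circles, squares and triangles for replicates 1, 2 and 3. Pfkp, Aldoa, Ldha, Taldo1 and Mdh1 are among the highest, and Eno2 and Aldoc lie near 1.

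Among regulators of these pathways, Txnip, Epas1 and Rptor rose with the block. Myc, an activator of glycolytic genes, had a mean of 65.4 ± 17.8 CPM over the 3 Mdr1+ libraries and of 63.1 ± 16.6 CPM over the 3 Mdr1- libraries (± SD). Hif1a, the hypoxia-inducible factor subunit, had a mean of 661 ± 198 CPM over the 3 Mdr1+ libraries and of 630 ± 273 CPM over the 3 Mdr1- libraries (± SD). Neither passed (adjusted p = 0.91 and 0.47 with the block), and the sign of both depended on which library was left out. Of 17 tested regulators 3 rose with the block and 0 fell. Txnip, an inhibitor of glucose uptake, was at 692, 931 and 673 CPM in Mdr1+ and at 434, 453 and 439 CPM in Mdr1- replicates 1, 2 and 3. Its groups did not overlap (blocked log2 fold change 0.78 ± 0.10, adjusted p = 0.0017, and 0.069 without the block). Epas1, which encodes another hypoxia-inducible factor subunit, and Rptor, a subunit gene of the growth regulator mTORC1, rose with the block by 0.79 ± 0.15 and 0.54 ± 0.11 on the log2 scale (adjusted p = 0.010 and 0.014), and did not pass without it (0.22 and 0.24).

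Among further glycolysis genes 1 of 8 tested rose with the block and 1, Pkm, fell. Pfkfb2, another maker of the phosphofructokinase activator, was at 61.0, 40.4 and 71.2 CPM in Mdr1+ and at 38.6, 30.3 and 36.0 CPM in Mdr1- cells (adjusted p = 0.023 with the block and 0.26 without it). Of 8 tested further genes around pyruvate dehydrogenase 0 passed. Of 8 tested enzymes that link the TCA cycle to the cytosol, 1 rose and 2 fell with the block. Got1, the cytosolic aspartate aminotransferase of the shuttle that also uses Mdh1, had a mean of 240 ± 75.3 CPM over the 3 Mdr1+ libraries and of 178 ± 48.6 CPM over the 3 Mdr1- libraries (± SD) and was higher in each pair (blocked log2 fold change 0.42 ± 0.08, adjusted p = 0.012). Pck2 and Gpd2, a mitochondrial phosphoenolpyruvate-making enzyme gene and the mitochondrial glycerol phosphate dehydrogenase gene, fell by 0.84 ± 0.22 and 0.59 ± 0.14 on the log2 scale with the block (adjusted p = 0.039 and 0.029). The unblocked fit called none of Got1, Pck2 and Gpd2 (adjusted p = 0.62, 0.30 and 0.23).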

How the data were processed

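The authors deposited 1 table of whole-number counts of reads by gene name. Per the submitters' processing notes, TopHat, HTSeq, DESeq2 and mm9 were used; no version, annotation or strandedness setting is given in the sources used here. Libraries were made from 500 ng of total RNA with a stranded kit, per the labels' protocols. Reads with several positions were 67.0% to 73.2% of the entries for replicates 1 and 2 and stayed out of library sizes and tests, as did reads in no feature (13.2% to 19.7%) and ambiguous reads (0.0320% to 0.0435%).

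The counts of replicate 3 were assigned to the gene names sorted without regard to case. Their Spearman correlation with replicates 1 and 2 was 0.424 to 0.460 in the deposited order and 0.926 to 0.962 after this step, against 0.957 to 0.969 among the other 4 libraries.

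Groups and replicate numbers follow the titles. Whether replicates are separate mice is not given, so p-values reflect only how these samples vary, which may be technical. Tests were the robust quasi-likelihood F test of edgeR 4.0.16 under R 4.3.3, after filterByExpr and TMM, with Benjamini-Hochberg adjustment over 10897 genes and a threshold of 0.05. Fold changes are log2 of Mdr1+ over Mdr1- ± standard error, and CPM is TMM-scaled. The planned fit has group only, and the alternative adds the replicate number as a block. Whether the numbers pair the samples was checked on deviations of log2 CPM (prior count 2) from group means. Libraries of the same number correlated across genes at 0.41, 0.57 and 0.21, and each correlated best with its own number, so blocked values are given beside the others; the pairing comes from the data and not from the labels. Chi-square values per degree of freedom between replicates were 15.0 to 58.9, so no library repeats another. Before TMM scaling, a floor of 3 counts is 0.144 to 1.35 CPM, which covers counting error only.

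Exon lengths and shared 50-base windows come from GENCODE M21 (GRCm38), with the longest coding transcript of each gene and without genes that overlap it. The genes named are all 44, and of the other lists those past the threshold in either fit plus a few fixed by name, some of which are not reported here. The genes and lists were chosen with earlier results of these data known. DESeq2 1.42.0 was an alternative.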

Additional observations from a re-analysis of the deposited data

How the results depend on the processing

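In the filtered edgeR fits 40 or 41 of the 44 genes were tested, without the filter 44, and DESeq2 was given all 44. The count of these genes past the threshold depended on the pairing of libraries. It was 0 lower and 0 higher in the fit without a block and in the 6 fits that leave out 1 library, 1 lower without the filter on low counts, 3 lower in DESeq2, and 10 lower with the replicate block. With the replicate block, 11 were lower without replicate 1, 2 without replicate 2, and 16 lower and 1 higher without replicate 3. Of the 10, all were still called without replicate 1, 9 without replicate 3 and 2 without replicate 2. Fits with the block that were added after seeing the data gave 11 lower with library totals only, 9 with DESeq2 size factors, 12 lower and 1 higher without the filter on low counts, and 11 lower in DESeq2. Over all genes these fits called 7.54%, 6.51%, 6.45% and 6.82% lower and 3.93%, 5.83%, 6.08% and 6.23% higher. Over all genes, 212 were lower and 30 higher in the fit without a block, 716 and 633 with the replicate block, 287 and 52 without the filter, 381 and 103 in DESeq2, and 0 and 0 with replicate 3 in its deposited order. Leaving out 1 library gave 75 to 196 lower and 1 to 15 higher, the lowest of both without Mdr1- replicate 3. With the block, 694 and 436 passed without replicate 1, 392 and 259 without replicate 2, and 1347 and 1131 without replicate 3. The causes were not tested.

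Among single genes, the changes of sign were all in genes that passed in no setting, except Gapdh and Hk1, which passed with the block when replicate 3 was left out. Pdha1 was -0.014 with the replicate block, -0.0035 with DESeq2 size factors, -0.066 with library totals and -0.010 in DESeq2. With the block and without replicate 1, Slc2a1 was -0.081, Gapdh -0.029 and Pdha1 -0.027; without replicate 2, Slc2a3 was 0.014, Aldoc 0.30, Pdk1 -0.0042, Myc -0.28 and Hif1a -0.0098; without replicate 3, Pfkfb4 was -0.35, Pgk1 -0.12, Slc16a1 -0.023, Pdha1 -0.20 and Myc -0.015. When 1 library was left out without the block, the log2 fold change ranged from -0.13 to 0.19 for Slc2a1, -0.17 to 0.13 for Slc2a3, -0.24 to 0.023 for Hk1, -0.50 to 0.083 for Pfkm, -0.29 to 0.49 for Pfkfb4, -0.46 to 0.21 for Aldoc, -0.14 to 0.51 for Pgk1, -0.27 to 0.37 for Slc16a1, -0.093 to 0.13 for Pdha1, -0.24 to 0.048 for Idh3g, -0.19 to 0.25 for Myc and -0.23 to 0.43 for Hif1a. Log2 isozyme ratio differences ranged from -0.044 to 0.35 for Slc2a1/Slc2a3, -0.95 to 0.028 for Hk2/Hk1, -0.45 to 0.15 for Pfkfb4/Pfkfb3, -0.45 to 0.17 for Aldoa/Aldoc, -0.79 to 0.0089 for Slc16a3/Slc16a1, -0.41 to 0.77 for Idh2/Idh1 and -0.30 to 0.33 for Mdh2/Mdh1.

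The Mdr1+ library of replicate 3 was shallow, and 3 counts in it are 1.35 CPM before TMM scaling. This limits most what can be read for Eno2, Aldoc, Pgam1 and Idh1. Pfkm, Pdk3, Pfkfb4, Gapdh, Pgk1 and Eno3 also had few counts there (19 to 27), as had Tpi1 (34).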

Other observations

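Hypoxia-responsive genes outside glycolysis were measured in the same fits. Of 12 listed, 8 were tested, 2 rose with the replicate block and 0 fell. Kdm3a, a histone demethylase gene induced by hypoxia, was at 332, 199 and 331 CPM in Mdr1+ and at 236, 130 and 198 CPM in Mdr1- replicates 1, 2 and 3. P4ha1, a prolyl hydroxylase gene of collagen synthesis, was at 165, 93.0 and 152 CPM in Mdr1+ and at 117, 57.9 and 89.0 CPM in Mdr1- cells. For both, replicate 2 was low in both fractions, the groups overlapped, and Mdr1+ was the higher library in each pair. Their log2 fold changes with the block were 0.61 ± 0.09 and 0.64 ± 0.10 (edgeR, adjusted p = 0.0029 and 0.0048, and 0.43 and 0.45 without the block). Ldha and Hk2, which are also known hypoxia targets, fell in the same fit. Slc2a1, Pfkfb3, Pdk1, Pgk1, Aldoa and Slc16a3, other such targets among the 44, did not pass. With the block their log2 fold changes were 0.09, 0.25, 0.11, 0.18, -0.21 and -0.27.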
